A study of Mus musculus with 38 samples.

Results

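The replication-dependent histone genes encode the core histones H2A, H2B, H3 and H4 and the linker histone H1 that package newly made DNA. They were taken as every row whose symbol starts with Hist1h, Hist2h, Hist3h or Hist4h, which gave 67 of the 31053 gene symbols in each of 4 count tables. By class there were 6 H1, 18 H2A, 18 H2B, 12 H3 and 13 H4 genes.

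The genes were measured by RNA sequencing in mouse Th17Inf cells, the name that the labels give to T helper 17 cells differentiated in culture, from mice of the C57/B6 strain. In 3 tables, naive T cells with the myelin-specific 2D2 T cell receptor came from donors that were CHD1 WT or cKO (Chd1 is a chromatin remodeller) or GR WT or cKO (GR is the glucocorticoid receptor, encoded by Nr3c1). They were differentiated in culture and transferred into WT recipients, which developed experimental autoimmune encephalomyelitis (EAE), and were isolated at peak disease. CHD1 cells came from the central nervous system (CNS) and from the draining lymph node (dLN), with 3 WT and 4 cKO libraries in each tissue, and GR cells from the CNS, with 4 WT and 4 cKO libraries. In the other table, WT Th17Inf cells and IL-23R KO cells, which lack the receptor for interleukin-23, were kept for 2 days in culture without (Ctrl) or with (Dex) the glucocorticoid dexamethasone, with 4 libraries in each of the 4 groups. All libraries were made from 2000 sorted cells with 12 cycles of amplification. The promoter that drives the Cre recombinase and the number of animals behind each library are not given in the sources used here, and the same donor or culture may stand behind several libraries.

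Most histone mRNA is made in S phase, when DNA is copied. Unlike most other mRNAs, these transcripts usually end without a poly(A) tail, just after a short hairpin (the stem-loop) that is bound by SLBP, and are cut there by a machinery that includes the U7 small nuclear RNA. Some members are also known to make longer, polyadenylated transcripts, mostly in cells that have stopped dividing. The libraries were made by a modified SMART-Seq2 protocol, a method that normally primes reverse transcription at poly(A), so the values describe the histone RNA that such a library captures and not all histone RNA in the cell.

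The stem-loop was found in the annotated transcripts of 46 of the 67 genes: 4 of 6 H1, 11 of 18 H2A, 10 of 18 H2B, 9 of 12 H3 and 12 of 13 H4 genes. Where found, it began 21 to 58 bases after the stop codon. In 17 members without one, under 60 bases are annotated after the stop codon. A missing stem-loop there may come from a short annotation and says little about the gene. The 16-base form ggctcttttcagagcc was shared by 26 members of H1, H2A, H2B and H3, while the form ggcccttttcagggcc was found in 7 H4 genes. The following 30-base stretches are from members that the comparisons turn on. They come from the GENCODE M21 transcripts, are written 5′ to 3′ as DNA with the stem-loop in capitals, and end at the last base of the stem-loop:
Hist1h2ap, chr13:21833029-21833058 (minus strand): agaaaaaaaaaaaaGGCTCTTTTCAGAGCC
Hist1h2ao, chr13:21810884-21810913 (plus strand): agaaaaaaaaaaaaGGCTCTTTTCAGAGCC
Hist2h3c2, chr3:96238485-96238514 (minus strand): ccattccccacaaaGGCTCTTTTCAGAGCC
Hist1h2bj, chr13:22043624-22043653 (plus strand): acaccaaatccaaaGGCTCTTTTCAGAGCC
Hist3h2a, chr11:58955158-58955187 (plus strand): ttacagacaccaaaGGCTCTTTTCAGAGCC
Hist3h2ba, chr11:58949335-58949364 (plus strand): gcccccaacccaaaGGCTCTTTTCAGAGCC
Hist1h1c, chr13:23739498-23739527 (plus strand): ctaacaatccaaaaGGCTCTTTTCAGAGCC
Hist1h4i, chr13:22040966-22040995 (minus strand): caatgctacttaaaGGCCCTTTTTAGGGCC
Hist1h2ap and Hist1h2ao, both H2A genes, carried the same 30 bases, and 13 of the 14 bases before their stem-loop were A. In the other members shown, 5 to 8 of those 14 bases were A. The members also differed in how far the annotated transcript runs past the stem-loop. It stops 3 bases after the stem-loop in Hist1h2ap and 23 bases after it in Hist1h2bj, but runs on for 169 bases in Hist3h2ba, 330 in Hist1h4i, 377 in Hist2h3c2, 840 in Hist1h1c, 1153 in Hist1h1e and 1643 in Hist3h2a.

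The genes lie in 4 clusters on the GRCm38 genome: 54 members of Hist1 at chr13:21715763-23934851, 10 of Hist2 at chr3:96219865-96270132, 2 of Hist3 at chr11:58948920-58956830 and the single Hist4 gene at chr6:136801553-136804415. Many are close copies of each other. Of all 75-base windows of a member's exons, a median of 58.0% occurred in no other gene, and 28 members were below 50%. For Hist1h2ap only 7.4% of windows were unique and for Hist1h2ao 6.9%, so the split of reads between near-identical members is uncertain, and sums over a class are given beside single genes.

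A library of the CHD1 CNS table held 4911109 to 6262849 counts in all and 8017 to 17887 in histone genes. For the dLN these ranges were 3148634 to 5158450 and 1614 to 7998, for GR they were 6281769 to 9159671 and 3325 to 9258, and in culture they were 3320586 to 4732419 and 1073 to 9586. A number of 3 counts in a library, the limit that a count of 0 allows, corresponded to 0.313 to 1.03 CPM (counts scaled to a fixed library total). Levels below are CPM on library sizes scaled by TMM, a factor that sets most genes equal between libraries. As a check of the labels, Nr3c1 stood at 11.5 to 17.2 CPM in GR WT and 5.20 to 6.12 in GR cKO cells, and Il23r in the absence of Dex at 5.79 to 8.03 in WT and 2.14 to 5.28 in IL-23R KO cells. Chd1 overlapped between genotypes in both tissues, at 5.06 to 6.11 CPM in WT and 3.46 to 6.40 in cKO cells of the CNS and at 4.70 to 5.11 and 2.58 to 5.44 in the dLN, so gene counts do not set the libraries labelled CHD1 cKO apart. Which part of the gene the allele removes is not given in the sources used here.

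One H2A gene, Hist1h2ap, held on average more than 50% of the summed histone level in every group except IL-23R KO Dex. Averaged over a table and divided by exon length, its level was 2613 CPM per kb in the CHD1 CNS table, 1269 in the dLN, 1096 in the GR table and 1603 in culture. The H3 genes Hist2h3b and Hist2h3c2 were at 361 and 70.6 CPM per kb in the CHD1 CNS table and 158 and 41.6 in culture. The leading members of the other classes were lower there: in culture Hist1h1b, a linker histone, was at 15.7 CPM per kb, Hist1h2bj of the H2B class at 19.2 and Hist1h4n of the H4 class at 22.7. In the GR table the first H2B gene was Hist1h2bc, at 19.2 CPM per kb, and the first H1 gene was Hist1h1c, at 8.4. Members listed at 0 in all libraries of a table numbered 1 in the CHD1 CNS, 3 in the dLN, 3 in the GR and 2 in the culture table. The filter on low counts kept 51, 35, 43 and 52 of the 67 members in the same order, and all counts of tested members below refer to these.

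The culture table asked how dexamethasone acts on histone transcripts with and without the interleukin-23 receptor. The summed level of all 67 genes was 1396, 1779, 1351 and 1407 CPM in WT Ctrl replicates 1 to 4 and 1440, 1284, 1661 and 1237 CPM in WT Dex. It was 1304, 1875, 1317 and 1516 CPM in IL-23R KO Ctrl replicates 5 to 8, and 493, 367, 488 and 503 CPM in IL-23R KO Dex. The 4 IL-23R KO Dex libraries stood below the 12 others, which overlapped each other. Between IL-23R KO Dex and KO Ctrl the log2 ratio of group means was -1.70, which is 3.25-fold lower.

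**Figure D1:**
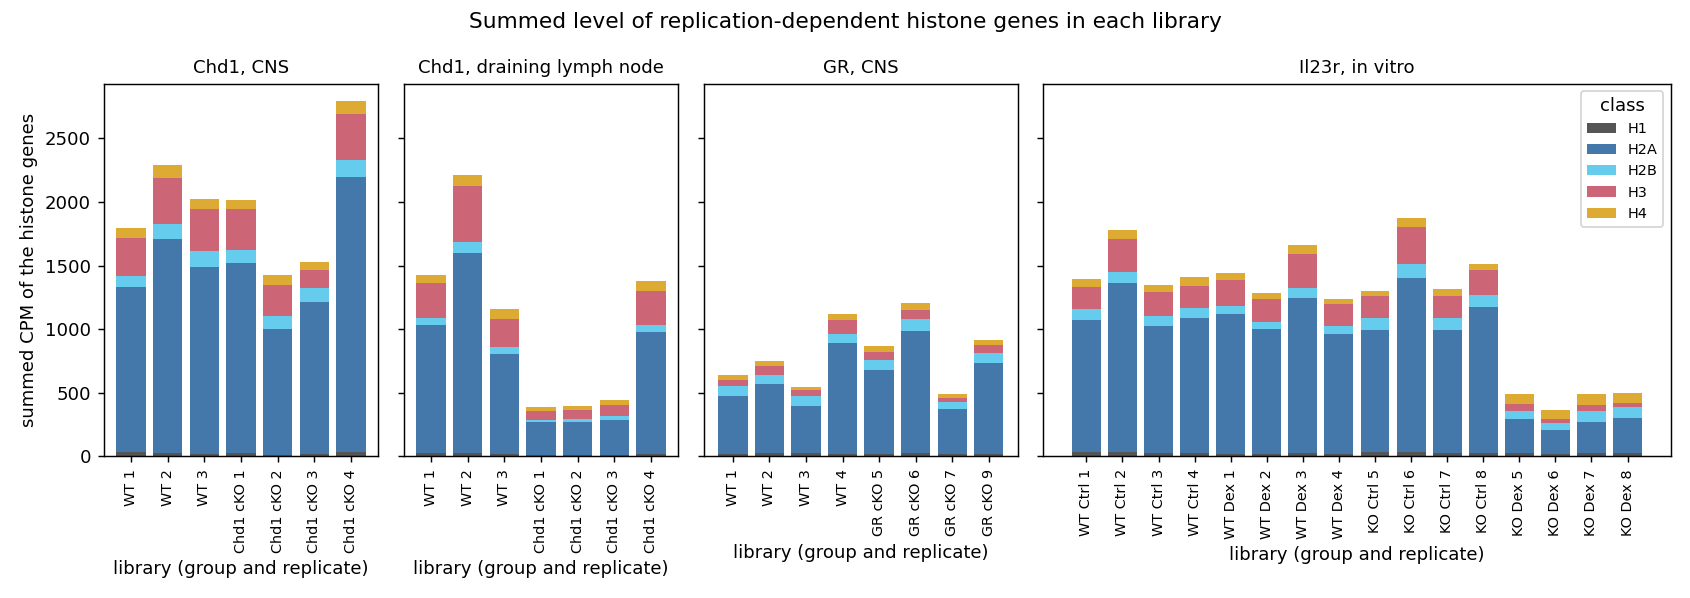
Summed TMM-scaled CPM of the histone genes in each library (vertical axis, linear from 0), stacked by class, with 1 panel per count table and 1 bar per library. The 4 IL-23R KO Dex bars (367 to 503 CPM) are lower than the other 12 culture bars, and in the dLN 3 of the 4 CHD1 cKO bars are lower than the WT bars while the bar of replicate 4 (1377 CPM) lies among them.

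The classes did not move alike in IL-23R KO cells given Dex. Summed H3 levels were 171, 290, 171 and 196 CPM in KO Ctrl and 53.5, 26.3, 42.5 and 28.7 CPM in KO Dex (log2 ratio -2.45), and H2A sums had a ratio of -2.18; neither overlapped between groups. Without Hist1h2ap the H2A ratio was -0.58 and the groups overlapped, so the size of the H2A value rests on that gene. The ratio was -0.34 for H1 and -0.42 for H2B. Summed H4 levels were 42.5, 72.2, 54.4 and 52.3 CPM in KO Ctrl and 83.2, 75.5, 88.1 and 81.5 CPM in KO Dex, a ratio of 0.57 with no overlap. On CPM without TMM, where the median gene in this comparison moved by -0.45, the H4 ratio was 0.09 with overlapping groups, while H3 and H2A were at -2.95 and -2.66. Leaving out Hist1h2ap, the ratio over the remaining 66 genes was -0.78.

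The makeup of the histone pool differed accordingly. Hist1h2ap made up 66.4% ± 1.58 (SD, n = 4) of the summed level in KO Ctrl, 66.2% in WT Ctrl, 67.3% in WT Dex and 36% ± 5.61 (SD, n = 4) in KO Dex. The share of H4 was 3.67% ± 0.393 in KO Ctrl and 17.9% ± 1.93 in KO Dex (SD, n = 4). That of H2B was 6.66% ± 0.717 and 15.9% ± 2.70, and that of H1 2.00% ± 0.278 and 5.06% ± 0.454. H2A (74.1% ± 0.984 and 53.0% ± 2.20) and H3 (13.6% ± 1.24 and 8.11% ± 2.20) had lower shares in KO Dex. No share of a class overlapped between these groups. Shares of 1 sum are tied to each other, so these are not separate changes. The H1 and H2B shares were higher although their summed levels had log2 ratios of -0.34 and -0.42.

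Gene by gene, 23 of the 52 members tested were called between IL-23R KO Dex and KO Ctrl (edgeR's quasi-likelihood test, Benjamini-Hochberg adjusted p under 0.05), against 54.7% of all genes tested. Of these, 7 members were higher in Dex, where 27.3% of all genes tested were, and 16 were lower, where 27.4% were. The median log2 fold change over the tested members was -0.70, and 0.01 over all genes tested. Among the members, 32 of 52 had a value below 0, against 49.4% of all genes tested. Levels did not overlap between the groups for 12 members that were lower and 3 that were higher, against 23.8% and 24.2% of all genes tested. Calls by class were 6 lower and 0 higher of 9 tested for H3, 6 lower and 3 higher of 14 for H2A, 3 lower and 2 higher of 14 for H2B, 1 lower of 4 for H1, and 0 lower and 2 higher of 11 for H4.

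Among H2A genes, Hist1h2ap was at 846, 1228, 882 and 1036 CPM in KO Ctrl and 197, 101, 185 and 193 CPM in KO Dex. All 4 Dex libraries were below all 4 Ctrl libraries, a log2 fold change of -2.56 ± 0.18 (SE, n = 4 per group; edgeR adjusted p = 5.21e-09). In WT cells it was at 932, 1157, 898 and 935 CPM in Ctrl and 987, 880, 1077 and 832 CPM in Dex. These groups overlapped, with a log2 fold change of -0.05 ± 0.16 and an adjusted p of 0.886 by the edgeR test. The H2A genes Hist1h2ab and Hist1h2ag also fell in KO cells, by 2.44 ± 0.48 and 4.73 ± 0.94 on the log2 scale. Hist1h2ag averaged 24.2 ± 8.38 CPM in KO Ctrl and 0.823 ± 0.951 CPM in KO Dex. Hist1h2ao, which carries the same stem-loop stretch as Hist1h2ap, did not pass the test (0.14 ± 0.83). It averaged 11.1 ± 11.1 CPM in KO Ctrl and 12.8 ± 6.99 CPM in KO Dex, and how reads were split between it and Hist1h2ap is uncertain.

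The H3 genes Hist2h3b and Hist2h3c2 encode the H3 protein that is placed on DNA during replication. Hist2h3c2 was at 50.4, 74.7, 36.2 and 59.3 CPM in KO Ctrl and 8.41, 4.10, 2.55 and 3.72 CPM in KO Dex. The groups lay far apart, at -3.57 ± 0.30 on the log2 scale (edgeR adjusted p = 4.77e-08). Hist2h3b was at 77.7, 148, 89.5 and 86.4 CPM in KO Ctrl and 21.3, 10.3, 21.2 and 9.56 CPM in KO Dex, a change of -2.69 ± 0.29. The third H3 gene by p, Hist1h3c, changed by -2.77 ± 0.56. In WT cells neither Hist2h3c2 (0.17 ± 0.22) nor Hist2h3b (0.13 ± 0.24) passed the test.

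Within H2B, Hist1h2bk, Hist1h2bj and Hist1h2bm fell, by 3.70 ± 0.72, 2.34 ± 0.49 and 2.76 ± 0.74 on the log2 scale. Their means were 15.4 ± 1.33, 12.6 ± 5.76 and 4.96 ± 3.85 CPM in KO Ctrl. In KO Dex they were 1.06 ± 2.13, 2.35 ± 2.05 and 0.677 ± 0.884 CPM, with overlap for Hist1h2bm. Each had a count of 0 in at least 1 KO Dex library, so the sizes of these falls are uncertain. Hist3h2ba, an H2B gene of the Hist3 cluster, rose instead. It was at 1.4, 1.76, 5.63 and 2.08 CPM in KO Ctrl and 9.92, 2.73, 11.9 and 7.44 CPM in KO Dex, with overlapping groups and a change of 1.61 ± 0.47. Hist1h2bc also rose, from 1.63, 2.15, 5.36 and 3.03 CPM to 5.11, 5.81, 4.81 and 10.9 CPM, by 1.17 ± 0.34; without KO Dex replicate 8, the highest of them, its edgeR adjusted p was 0.0539.

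The partner of Hist3h2ba in the same cluster, the H2A gene Hist3h2a, had the smallest p among the genes that rose. Its levels were 1.63, 1.17, 1.88 and 1.52 CPM in KO Ctrl and 6.01, 5.13, 6.80 and 7.44 CPM in KO Dex. The groups did not overlap, and the change was 2.04 ± 0.25 (edgeR adjusted p = 3.43e-06). Its counts were 20, 15, 24 and 28 in KO Dex. Elsewhere in culture only WT Ctrl replicates 1 and 3 reached 10 counts (16 and 12). The filter on low counts thus kept this gene mainly through the group where it is high, a limit on its p here and in the comparisons below. In WT cells Hist3h2a was at 3.23, 1.76, 2.38 and 1.93 CPM in Ctrl and 1.68, 1.76, 1.36 and 1.32 CPM in Dex, which did not pass the test (-0.59 ± 0.27). A pair of near-identical H2A genes of the Hist2 cluster, Hist2h2aa1 (2.02 ± 0.77) and Hist2h2aa2 (1.23 ± 0.43), rose as well. Neither call is firm: Hist2h2aa1 had an adjusted p of 0.172 by DESeq2 and 0.0511 to 0.0808 by edgeR without KO Ctrl replicate 5, 6 or 8 or KO Dex replicate 5, 6 or 8. Hist2h2aa2 had 0.0593 to 0.0959 without KO Ctrl replicate 6 or 8 or KO Dex replicate 6 or 8. For Hist2h2aa2, 0% of exon windows are unique.

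Linker histones bind the DNA between nucleosomes. Hist1h1b was at 14.9, 16, 10.7 and 14.2 CPM in KO Ctrl and 6.31, 4.10, 4.81 and 6.64 CPM in KO Dex, lower without overlap (-1.35 ± 0.26). The other well detected linker genes did not pass this test, with Hist1h1c at 0.47 ± 0.24 and Hist1h1e at 0.33 ± 0.18. Of the H4 genes, Hist1h4n rose by 2.05 ± 0.64, from a mean of 5.75 ± 2.98 to 23.6 ± 9.13 CPM (SD, n = 4), although its adjusted p was 0.0825 by DESeq2. Hist1h4i was at 9.33, 11.7, 5.63 and 5.69 CPM in KO Ctrl and 14.7, 10.9, 22.4 and 9.83 CPM in KO Dex, with overlap. Its rise of 0.83 ± 0.32 lost its call without KO Ctrl replicate 7 or 8 or KO Dex replicate 5 or 7, where the edgeR adjusted p was 0.0662 to 0.187.

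**Figure D2:**
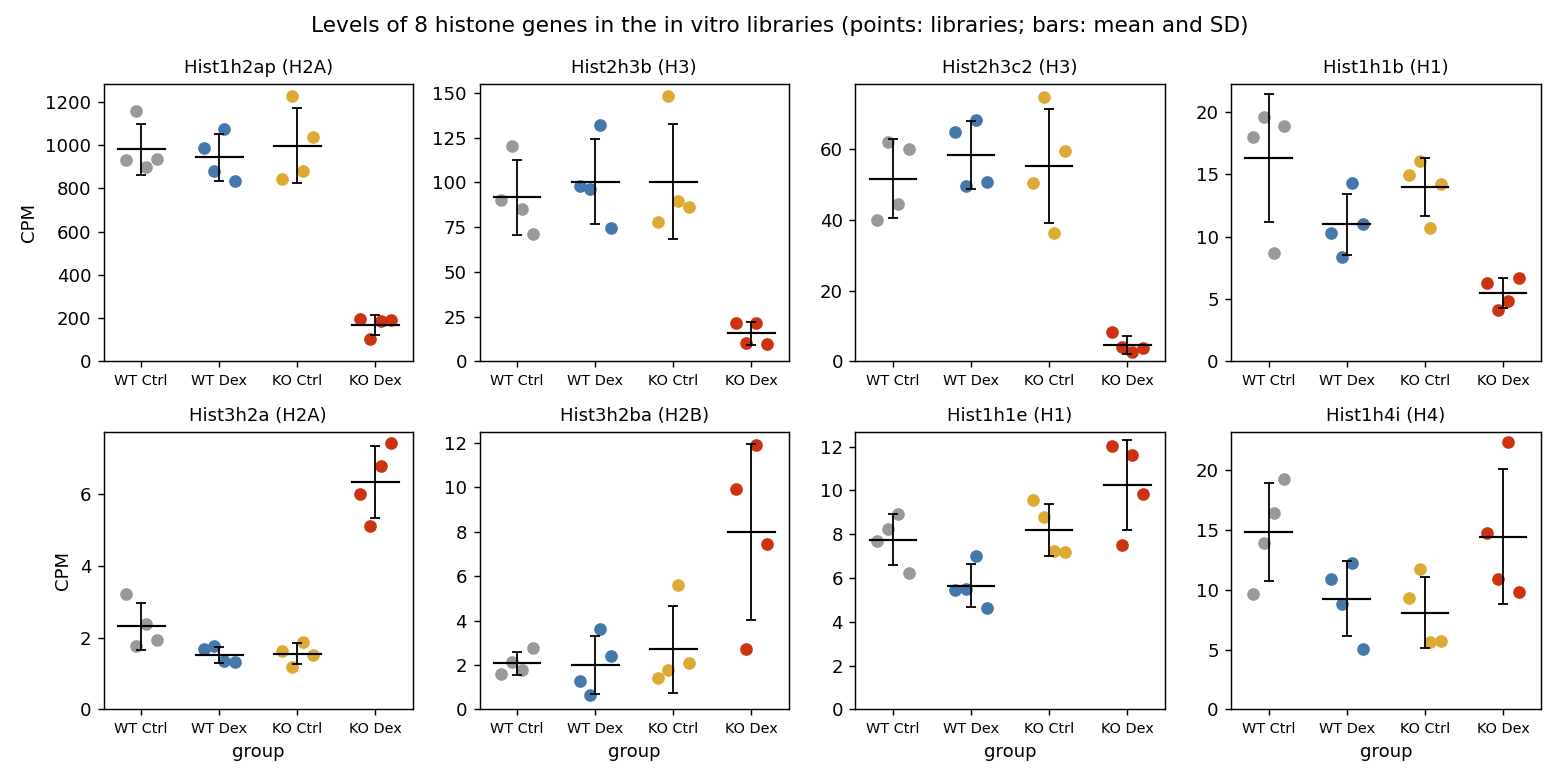
TMM-scaled CPM (vertical axes) of 8 histone genes in the 4 culture groups, with 1 point per library, the group mean as a bar and the SD (n = 4) as the error bar. Hist1h2ap, Hist2h3b, Hist2h3c2 and Hist1h1b are lower in IL-23R KO Dex than in the other groups, Hist3h2a is higher there, and Hist1h4i overlaps between groups.

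The annotated 3′ end was set beside these changes because a library of this type normally starts from poly(A). Of 23 members whose transcript ends within 100 bases of the stem-loop, 22 were tested in IL-23R KO cells, and 3 were called higher and 9 lower with Dex, with a median log2 fold change of -1.30. Of 23 members whose transcript runs on for more than 100 bases, 13 were tested, 3 were called higher and 3 lower, and the median was -0.00. Members without a stem-loop in the annotated transcript were divided by the length annotated after the stop codon. Those with at least 60 bases (4 members, 3 tested) had 1 call higher and none lower (median 0.29), and those with fewer (17 members, 14 tested) had 4 lower and none higher (median -1.14). Over all genes tested, 27.3% were called higher and 27.4% lower, and the calls among members that run on were near these shares. No difference between these groups of members was tested. The annotated end and the class overlap, so their parts cannot be told apart. Hist2h3c2, with 377 bases past its stem-loop, fell, and Hist3h2a, with 1643, rose.

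**Figure D3:**
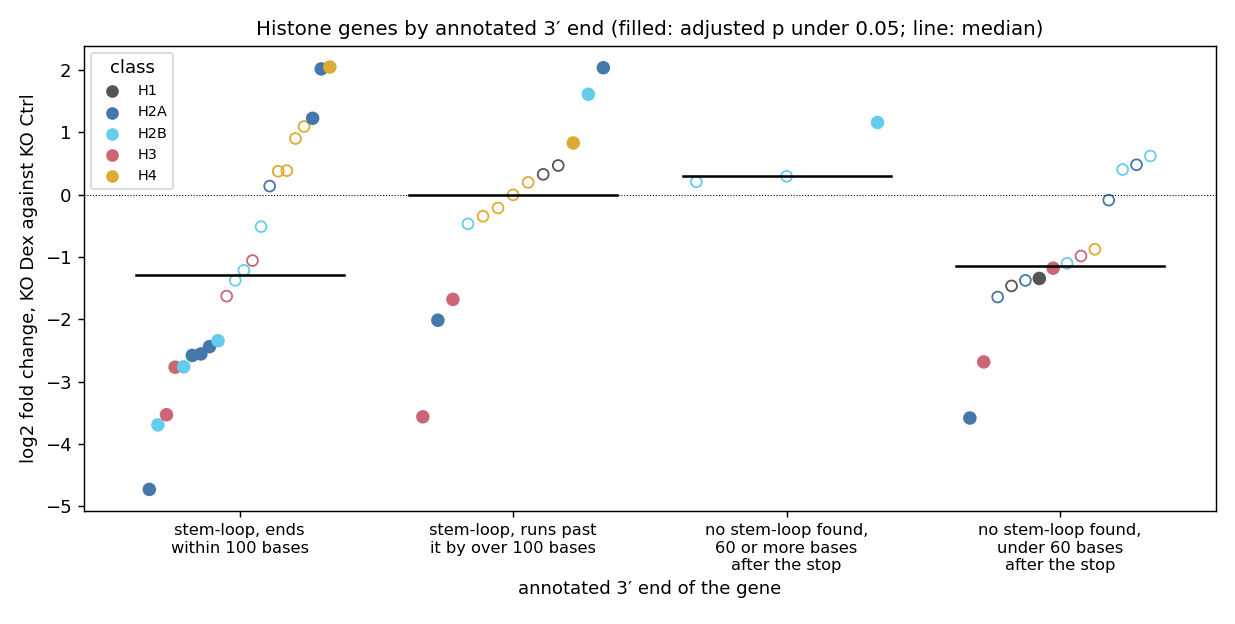
Log2 fold change of each tested histone gene between IL-23R KO Dex and KO Ctrl (vertical axis), grouped by the annotated 3′ end of its transcript, with the group median as a line and called genes as filled points. Genes that end within 100 bases of the stem-loop have a median of -1.30 and genes that run further a median of -0.00, with wide overlap between the groups.

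In WT cells, Dex against Ctrl called 0 of the 52 tested members by edgeR, where 8.08% of all genes tested were called, and 0 by DESeq2, where 8.44% were. At an unadjusted p under 0.05 there were 4 members, all lower, against 22.4% of all genes tested. The smallest p-values belonged to Hist1h2bm (-1.65 ± 0.63), Hist1h1b (-0.57 ± 0.23) and Hist1h1e (-0.46 ± 0.18), with edgeR adjusted p of 0.129, 0.146 and 0.149. Hist1h1b was at 18.0, 19.6, 8.71 and 18.9 CPM in WT Ctrl and 10.3, 8.38, 14.3 and 11 CPM in WT Dex. Replicate 3 of WT Ctrl was the low one, and without it Hist1h1b was called at -0.78. The summed level had a log2 ratio of -0.08; the H1 sum (-0.52) and the H2B sum (-0.35) were lower in Dex without overlap.

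Without Dex, no histone gene was called between IL-23R KO and WT cells. The edgeR test called 0 of 52 members (0.684% of all genes tested), and DESeq2 called 0 (1.13%). An unadjusted p under 0.05 was reached by 4 members, 3 of them lower in KO, against 9.72% of all genes tested. They were led by Hist1h4i (-0.86 ± 0.31), Hist1h4m (-1.24 ± 0.49) and Hist1h2bk (1.21 ± 0.51). The log2 ratio of summed levels was 0.02, and the H2B sum was higher in KO without overlap (0.24).

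With Dex in both, IL-23R KO differed from WT in 19 of 52 members, 5 higher and 14 lower in KO, against 45.9% of all genes tested, 22.2% higher and 23.7% lower. This comparison shares the KO Dex libraries with the one above. Members without overlap numbered 12 lower and 6 higher, against 21.5% and 20.2% of all genes tested. The H3 genes had 5 lower calls of 9 tested and the H2A genes 7 lower and 1 higher of 14. Hist1h2ap (-2.48 ± 0.18), Hist2h3c2 (-3.63 ± 0.30) and Hist2h3b (-2.68 ± 0.29) were lower, and Hist3h2a (2.03 ± 0.25) and Hist3h2ba (2.01 ± 0.49) were higher.

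A pair of linker genes was called here and not between KO Dex and KO Ctrl. Hist1h1e was at 5.47, 5.51, 7.02 and 4.62 CPM in WT Dex and 12.0, 7.52, 11.6 and 9.83 CPM in KO Dex (0.86 ± 0.19). Hist1h1c was at 4.21, 2.20, 3.62 and 3.96 CPM in WT Dex and 6.61, 4.44, 8.49 and 8.50 CPM in KO Dex (1.01 ± 0.25). Neither overlapped, while Hist1h1b was lower (-0.99 ± 0.27), so the linker genes changed in both directions. Class sums had log2 ratios of -2.43 for H3, -2.11 for H2A, 0.13 for H1, 0.17 for H2B and 0.61 for H4. Without Hist1h2ap the H2A ratio was -0.61. On CPM without TMM, where the median gene moved by -0.31, H1 and H2B turned to -0.18 and -0.13 and H4 was at 0.31 with overlap.

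Whether the Dex response differed between genotypes was tested by an interaction term over all 16 libraries. It was called for 14 of 52 members, 3 with a higher and 11 with a lower response in IL-23R KO, against 32.2% of all genes tested, 15% higher and 17.2% lower. The difference in log2 response was -2.50 ± 0.24 for Hist1h2ap (edgeR adjusted p = 1.38e-06), -3.74 ± 0.38 for Hist2h3c2 and -2.81 ± 0.37 for Hist2h3b. For Hist3h2a it was 2.63 ± 0.37 (edgeR adjusted p = 5.09e-05) and for Hist1h4i 1.5 ± 0.45. Hist1h1e, at 0.78 ± 0.26, lost its call by DESeq2 (adjusted p = 0.0723) and by edgeR without WT Ctrl replicate 3, KO Ctrl replicate 8, WT Dex replicate 4 or KO Dex replicate 5 or 7 (0.0560 to 0.0599), or with no filter on low counts (0.0916). Hist1h2bj (-1.99 ± 0.64) had 0.0556 without KO Dex replicate 8. Hist1h1b (-0.78 ± 0.35) and Hist3h2ba (1.68 ± 0.73) did not pass, so a different response was not shown for them.

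**Figure D4:**
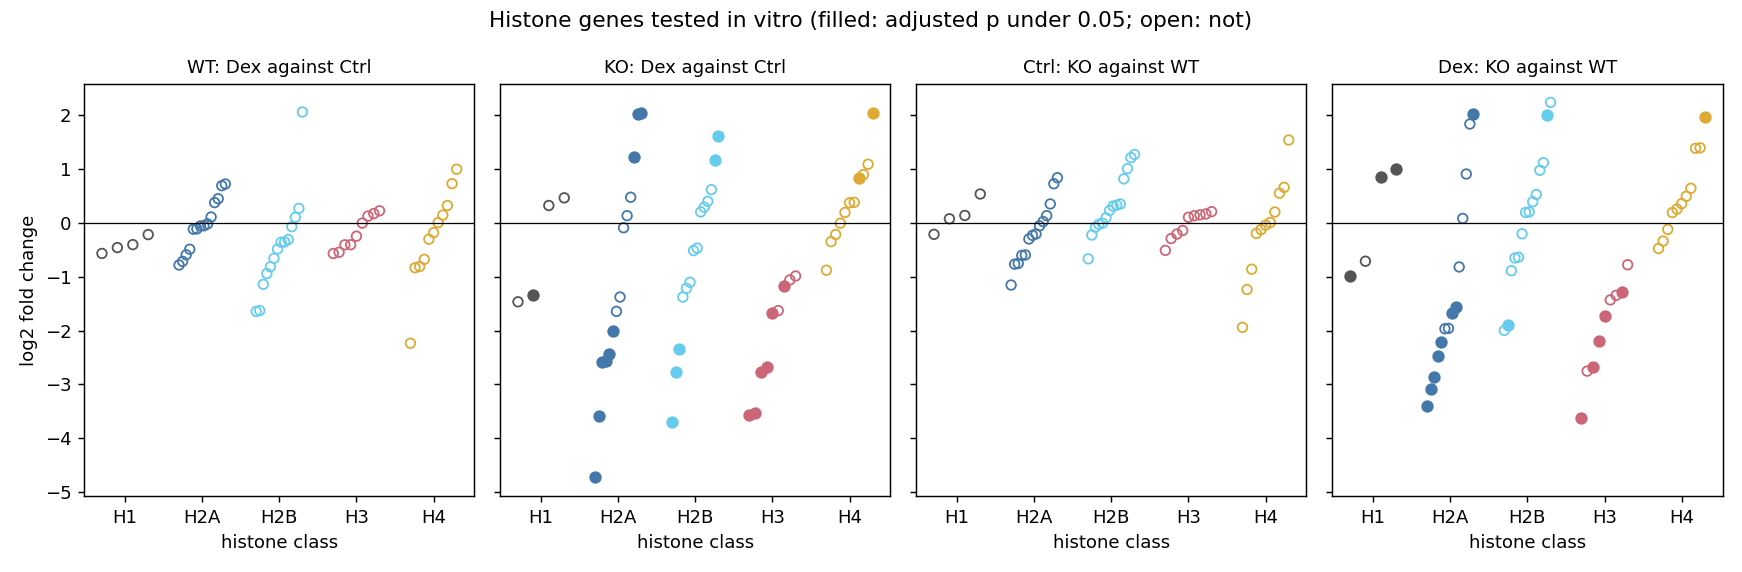
Log2 fold change of each tested histone gene (vertical axis) by histone class, in the 4 culture comparisons, with genes past the edgeR test filled. The H3 points of both comparisons that include IL-23R KO Dex lie below 0, H4 points lie on both sides of 0, and no gene is filled for Dex in WT cells or for genotype without Dex.

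Other genes of the histone pathway were followed in the same IL-23R KO Dex to KO Ctrl comparison, from lists of 17 mRNA processing factors, 22 chaperones, 11 replication-independent histones and 22 S phase genes in the table. Over all genes tested in it, 54.7% were called, 27.3% higher and 27.4% lower. Of 16 processing factors tested, 1 was called higher and 8 lower (median log2 fold change -0.32). Both directions together, this is near the share over all genes. Slbp, which binds the stem-loop, was lower by a small amount (-0.43 ± 0.12, edgeR adjusted p = 0.00718), and the cleavage factors Cpsf2 (-1.17 ± 0.16) and Cpsf3 (-1.0 ± 0.14) fell. Eri1, an exonuclease that trims histone mRNA, rose (0.57 ± 0.14), and Npat, the activator of histone gene transcription, did not pass the test (-0.02 ± 0.18). Of 22 chaperones, 3 were called higher and 13 lower (median -0.69): Chaf1a, of the assembly factor that works at replication forks, changed by -2.31 ± 0.25, Nasp, which holds soluble H3 and H4, by -1.88 ± 0.20, and Hat1, which acetylates new H4, by -1.74 ± 0.13. Nap1l4, an H2A-H2B chaperone, rose by 1.11 ± 0.07.

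Of the 9 replication-independent histones tested, 3 were called higher and 4 lower (median 0.25). H2afy (macroH2A, 1.01 ± 0.09), H3f3b (0.43 ± 0.08) and H3f3a (0.34 ± 0.06), both of which encode H3.3, rose. H2afx (-0.97 ± 0.13), Cenpa, the centromeric H3 (-0.82 ± 0.07), and H2afz (-0.59 ± 0.08) fell. Of 22 S phase genes, 0 were called higher and 19 lower, with a median of -1.56, and 27.4% of all genes tested were called lower. Their summed level was 1236 to 1782 CPM in KO Ctrl and 527 to 597 CPM in KO Dex; Mcm5 of the replicative helicase changed by -2.07 ± 0.14, Pcna by -0.73 ± 0.09 and Tyms, which makes thymidylate, by -2.67 ± 0.23. Fewer cells in S phase and less histone RNA per cell cannot be told apart in bulk samples.

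Other properties of the IL-23R KO Dex libraries differed too. The share of repeat and ribosomal RNA features was 30.5% to 37.5% of counts, against 13.5% to 25.4% in the other culture libraries, and mitochondrial genes took 0.36% to 0.45% against 1.46% to 2.26%. The summed level of 10 T cell markers was 2839 to 3189 CPM there and 3423 to 4032 CPM elsewhere, and that of 12 microglia and macrophage markers was 100 to 110 CPM against 41 to 64 CPM, with Lyz2, C1qb and C1qc at 0 in all groups and 4 of the 12 at 0 in KO Dex. Only 3 of the 12 microglia and macrophage markers passed the filter on low counts. Between KO Dex and KO Ctrl, 2 of them were called higher, where 27.3% of all genes tested were, and 1 had a log2 fold change below 0. The part of these properties in the histone levels was not tested.

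In the dLN, CHD1 cKO was compared with WT. The summed histone level was 1424, 2212 and 1158 CPM in WT against 387, 399, 441 and 1377 CPM in cKO. Replicates 1 to 3 of cKO were below every WT library and replicate 4 was within the WT range, so the groups overlapped, at a log2 ratio of -1.30. Without cKO replicate 4 the ratio was -1.97. Every class had a ratio below 0: -1.17 for H1, -1.35 for H2A, -1.10 for H2B, -1.34 for H3 and -0.70 for H4.

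By edgeR, 0 of the 35 members tested were called (0.0714% of all genes tested), and by DESeq2 2 were, Hist1h2ao and Hist1h2bj (3.93% of all genes tested). At an unadjusted p under 0.05 there were 15 members, against 20.1% of all genes tested, and all 15 were lower in cKO, against 10.5%. A log2 fold change below 0 was found for 30 of the 35, against 47.9% of all genes tested, and the median was -0.93 against 0.02. For 7 members the cKO libraries were all below the WT libraries and for 0 all above, against 7.98% and 8.86% of all genes tested. Without cKO replicate 4, 15 of 31 members were called, all lower, and 10.2% of all genes tested were called. Without WT replicate 3, 1 member was called, and the share of all genes called in that fit is not given here.

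Hist1h2ap stood at 837, 1333 and 669 CPM in WT against 199, 194, 224 and 825 CPM in cKO (-1.39 ± 0.50, edgeR adjusted p = 0.171). Hist2h3c2 stood at 73.0, 118 and 69.8 CPM in WT against 15.7, 17.1, 21.6 and 60.8 CPM in cKO (-1.59 ± 0.43), with no overlap. The linker gene Hist1h1e, at 6.74, 6.91 and 5.26 CPM in WT against 1.94, 0.99, 2.58 and 4.57 CPM in cKO (-1.31 ± 0.41), did not overlap either. In each of these genes replicate 4 was the cKO library nearest to WT. Hist3h2a, which rose in the IL-23R KO cells, stood at 4.41, 4.42 and 5.73 CPM in WT against 5.17, 3.71, 4.93 and 4.33 CPM in cKO (-0.10 ± 0.25). The smallest p belonged to Hist1h2ao (-2.47 ± 0.41, edgeR adjusted p = 0.0608), Hist1h2bj (-2.57 ± 0.64, 0.0989) and Hist1h2ai (-3.10 ± 0.83, 0.108).

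S phase genes and markers of another cell type moved with the same dLN libraries. The summed S phase level was 1179, 1474 and 941 CPM in WT against 428, 506, 541 and 984 CPM in cKO, again with replicate 4 in the WT range. None of the 21 S phase genes tested was called by edgeR, 19 had an unadjusted p under 0.05 and all 19 were lower, with a median of -0.92. Mcm5 was at -1.18 ± 0.30 and Pcna at -0.91 ± 0.28. The CD8 T cell markers Cd8a and Cd8b1 summed to 19.7, 12.4 and 18.9 CPM in WT and to 213, 500, 419 and 109 CPM in cKO, with replicate 4 the lowest of the cKO libraries. Both markers were called higher by edgeR (median log2 fold change 5.00). Only 7 of the 9803 genes tested were called in this comparison (0.0714%). The 10 T cell markers summed to 19448 to 21426 CPM in WT and 7047 to 15875 CPM in cKO, although 6 of the 10 had a log2 fold change above 0 (median 0.17). Of these 10, 2 had an unadjusted edgeR p under 0.05: Trbc2, a T cell receptor gene, was lower (-0.93 ± 0.29) and the other was higher. Of 6 B cell markers tested, 4 had a log2 fold change above 0 and 2 below (median 0.70). None was called by edgeR, and 2 had an unadjusted p under 0.05, both higher, against 20.1% of all genes tested. The part of the CD8 and B cell signals in the histone levels was not tested. None of the processing factors, chaperones or replication-independent histones was called here.

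In the CNS, CHD1 cKO and WT overlapped. Summed histone levels were 1793, 2293 and 2024 CPM in WT against 2013, 1424, 1525 and 2791 CPM in cKO, a log2 ratio of -0.07 that turned to 0.08 without TMM. By edgeR 0 of 51 members were called (0.00896% of all genes tested), and 5 reached an unadjusted p under 0.05, all lower in cKO, against 11.9%. By DESeq2 2 were called, Hist1h3i and Hist1h2bn (1.62% of all genes tested). Hist1h3i, an H3 gene, averaged 27.0 ± 6.08 CPM in WT (SD, n = 3) and 5.94 ± 2.58 CPM in cKO (SD, n = 4), with no overlap and a change of -2.17 ± 0.31 (edgeR adjusted p = 0.150). Hist1h2bn of the H2B class averaged 10.3 ± 3.49 and 2.39 ± 2.08 CPM (-2.10 ± 0.55, 0.247) and Hist1h4h 4.66 ± 1.63 and 1.80 ± 0.498 CPM (-1.36 ± 0.37, 0.252). Hist1h2ap stood at 1135, 1441 and 1259 CPM in WT against 1285, 784, 1023 and 1889 CPM in cKO (-0.04 ± 0.26). The median over the tested members was -0.00. B cell markers summed to 1082 to 1301 CPM in WT and 1388 to 2771 CPM in cKO, and microglia and macrophage markers to 2885 to 3701 and 3278 to 6034 CPM. Of the 7 B cell markers Pax5 was at 0 in WT, and none of the 12 others was at 0. All 10 T cell markers had a log2 fold change below 0 (median -0.26), and all 12 microglia and macrophage markers and all 5 B cell markers tested one above 0 (medians 0.58 and 0.85). Their part in these values was not tested.

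In the CNS, GR cKO and WT cells also overlapped, at summed levels of 637, 749, 549 and 1118 CPM in WT against 866, 1203, 495 and 919 CPM in cKO (log2 ratio 0.19). By edgeR 0 of 43 members were called (0% of all genes tested), by DESeq2 0 (1.09%), and 5 reached an unadjusted p under 0.05, 2 of them lower, against 11%. Hist1h2ap stood at 382, 456, 311 and 783 CPM in WT against 573, 833, 286 and 603 CPM in cKO (0.25 ± 0.34). The linker gene Hist1h1c stood at 14.2, 16.2, 15.2 and 10.1 CPM in WT against 12.5, 14, 13.5 and 8.89 CPM in cKO (-0.18 ± 0.19). The smallest p belonged to Hist1h3a (-3.02 ± 0.78, edgeR adjusted p = 0.262), whose level averaged only 1.63 ± 0.248 CPM in WT and 0.178 ± 0.356 CPM in cKO, Hist1h2br (-0.94 ± 0.28, 0.296) and Hist1h2ao (1.19 ± 0.36, 0.298). The 12 microglia and macrophage markers, none of them at 0, summed to 1981 to 6321 CPM in WT and 4021 to 7453 CPM in cKO, and 10 of the 12 had a log2 fold change above 0 (median 0.37). B cell markers summed to 810 to 1845 CPM in WT and 1638 to 2736 CPM in cKO, and all 5 tested were higher at an unadjusted p under 0.05 (median 1.63). All 10 T cell markers had a value below 0, 6 of them at that p (median -0.34), and summed to 21257 to 30854 CPM in WT and 17428 to 22973 CPM in cKO. None of these markers was called by edgeR, and their part in the histone levels was not tested.

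**Figure D5:**
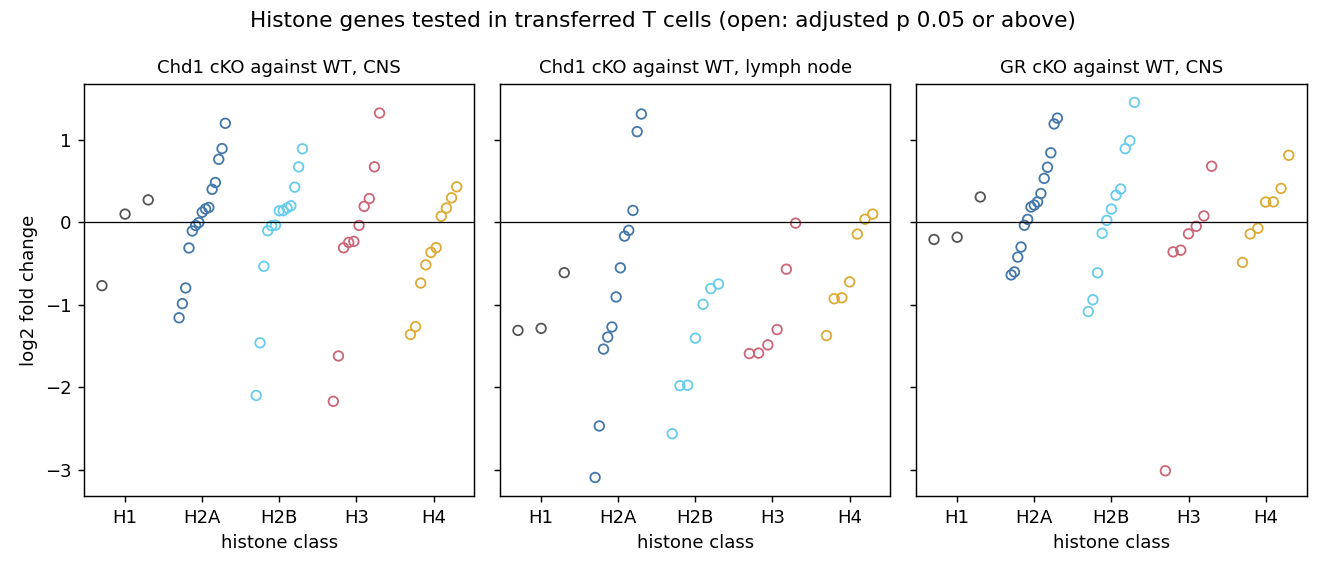
Log2 fold change between cKO and WT of each tested histone gene (vertical axis) by histone class, for CHD1 in the CNS, CHD1 in the dLN and GR in the CNS. All points are open, since no gene passed the edgeR test, and 30 of the 35 dLN points lie below 0.

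The DNA just before the start of the genes was searched for known promoter motifs in the RefSeq promoters of GRCm38.p6, which matched 62 of the 67 members. In the 250 bases before the start, CCAAT (either strand) was found in 51 promoters (82.3%), against 33.8% of 32851 promoters. By class it was in all 6 H1, all 18 H2A and all 16 H2B promoters, in 8 of 10 H3 and in 3 of 12 H4 promoters. The octamer ATTTGCAT was found in 14 (22.6% against 1.60%), 7 in H2A and 7 in H2B genes. TATAAA was in 29 (46.8% against 12.4%), and TTTGGCGC in none (0.417% of all). The 100 bases before the start are shown for genes that fell and rose with Dex in IL-23R KO cells, with CCAAT, ATTTGCAT and TATAAA on either strand in capitals:
Hist1h2ap, chr13:21833476-21833575 (minus strand): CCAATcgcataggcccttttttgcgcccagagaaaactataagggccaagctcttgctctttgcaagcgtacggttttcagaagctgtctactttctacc
Hist2h3c2, chr3:96239128-96239227 (minus strand): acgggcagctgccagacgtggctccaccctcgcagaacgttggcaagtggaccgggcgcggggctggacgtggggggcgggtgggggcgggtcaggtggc
Hist1h1b, chr13:21780626-21780725 (minus strand): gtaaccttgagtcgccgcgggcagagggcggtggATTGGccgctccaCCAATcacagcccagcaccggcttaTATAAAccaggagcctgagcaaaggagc
Hist3h2a, chr11:58954585-58954684 (plus strand): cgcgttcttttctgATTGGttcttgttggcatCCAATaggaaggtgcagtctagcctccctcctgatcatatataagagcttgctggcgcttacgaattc
Hist1h4i, chr13:22041363-22041462 (minus strand): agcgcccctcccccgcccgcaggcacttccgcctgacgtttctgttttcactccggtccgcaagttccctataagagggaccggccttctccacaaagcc
Hist1h1b, which fell, and Hist3h2a, which rose, both carried CCAAT on both strands, Hist1h2ap carried 1 copy, and Hist2h3c2 and Hist1h4i carried none of the 3 motifs in this window. No match says only that these letters were not in the window.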

How the data were processed

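The authors deposited 4 tables of expected counts (estimated counts) per gene symbol, made with RSEM 1.3.3 on mm10, per the submitters' processing notes; all values are whole, and were taken as rounded estimates. Aligner and annotation are not given in the sources used here. The count columns mapped to 38 libraries in 10 groups by their labels. The histone members, gene lists and tests were chosen with earlier results of these data known.

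Tests were run in edgeR 4.0.16 under R 4.3.3: filterByExpr (minimum count 10, minimum total 15), TMM, quasi-likelihood F test, 1 fit per table, and Benjamini-Hochberg adjustment over all genes tested. DESeq2 1.42.0 was an alternative. Summaries used Python 3.11.15, pandas 2.3.3 and numpy 2.4.6. The fitting script was tested on simulated data. Sums over members carry no p. The genes named were the called members (up to 3 per class and direction by p), otherwise the 3 with the smallest p, the most abundant of each class, and fixed members of the other lists; likeness of genes by correlation was not computed.

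The labels do not say that replicates are separate animals or cultures, so each p-value reflects only the spread among these libraries, which may be technical. Of 54 within-group pairs, none agreed within sampling noise (lowest chi-square per degree of freedom 4.03). Reads carry no molecular identifiers, so the limit from 3 counts covers counting error only. Stem-loops and exon lengths came from GENCODE M21 and promoters from RefSeq.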

Additional observations from a re-analysis of the deposited data

Results flagged for a closer look

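Among 136 tests of whether the highest or lowest library of a group of 4 stood apart (Dixon's test), 20 did, and chance flags about 1 in 20 groups. These tests are not independent, since sums and single genes share counts. In the dLN, CHD1 cKO replicate 4 was above the other cKO libraries in the summed level of all members (1377 CPM), of H1 (18.8 CPM), H2A (962 CPM), H2B (55.1 CPM) and H3 (265 CPM), and in Hist1h2ap (825 CPM), Hist2h3c2 (60.8 CPM) and Hist1h2bc (2.65 CPM). In culture, WT Ctrl replicate 2 was above its group in the sum of all members (1779 CPM), in H3 (258 CPM) and in Hist1h2ap (1157 CPM). IL-23R KO Dex replicate 6 was below its group in the sum of all members (367 CPM), in H1 (16.1 CPM) and in Hist1h2ap (101 CPM). IL-23R KO Ctrl replicate 6 was above its group in the H2B sum (109 CPM) and in Hist2h3b (148 CPM). Single genes stood apart in WT Ctrl replicate 3 (Hist1h1b, 8.71 CPM, low), KO Ctrl replicate 7 (Hist3h2ba, 5.63 CPM, high), KO Dex replicate 8 (Hist1h2bc, 10.9 CPM, high) and GR WT replicate 2 (Hist3h2a, 16.6 CPM, high).

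The Dex response differed between IL-23R KO and WT cells for 14 members by the interaction term of the edgeR fit, out of 52 tested, against 32.2% of all genes tested. The difference in log2 response (KO minus WT) was -2.50 for Hist1h2ap, -2.33 for Hist1h2ab, -4.24 for Hist1h2ag, -2.40 for Hist1h2ae and -2.80 for Hist1h2an in class H2A. In H3 it was -3.74 for Hist2h3c2, -2.81 for Hist2h3b, -2.37 for Hist1h3c and -1.44 for Hist1h3e, and in H2B -3.21 for Hist1h2bk and -1.99 for Hist1h2bj. It was above 0 for Hist3h2a (2.63), Hist1h4i (1.5) and Hist1h1e (0.78).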

How the results depend on the processing

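Counts of called members moved by over 1.5 times in these cases. For CHD1 in the CNS, 0 became 2 by DESeq2 (1.62% of all genes tested were called), 2 without a filter on low counts (0.320%) and 1 with the replicate block (0.0269%). For CHD1 in the dLN, 0 became 2 by DESeq2 (3.93%), 9 without a filter (2.28%), 14 with the replicate block (6.25%), and 0 to 15 over the fits that left out 1 library. In both CHD1 tables cKO replicate 4 has no WT library of its number. The block fit therefore takes no genotype difference from it, much like a fit without that library. Dex in WT gave 0 to 1 over the fits that left out 1 library. Restricting to genes with a mean of at least 10 CPM left 9 calls for Dex in IL-23R KO, 7 for KO against WT with Dex and 6 for the interaction, as fewer members were tested, and 65.1%, 56.7% and 43.4% of all genes were called. Leaving out 1 library gave 19 to 25, 15 to 22 and 11 to 17 calls in these 3, and 0 in each such fit for CHD1 and GR in the CNS and for genotype without Dex. Shares of all genes called are not set beside these ranges, so the ranges are not results about the histone genes alone. The summed levels of these 3 comparisons became -2.18, -1.91 and -1.98 without TMM and -0.78, -0.65 and -0.66 without Hist1h2ap, and ranged from -1.76 to -1.58, -1.66 to -1.51 and -1.72 to -1.50 over the libraries left out. The same ranges were -0.30 to 0.05 for CHD1 and -0.01 to 0.43 for GR in the CNS, -1.97 to -0.99 for CHD1 in the dLN, -0.17 to 0.02 for Dex in WT and -0.11 to 0.12 for genotype without Dex.

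Same-numbered libraries did not all deviate together (14 pairs, correlations -0.08 to 0.109), and the best match of 8 of 14 was its own number. Whether they are pairs is not known from this, and numbers were not taken as pairs. Beyond CHD1, the replicate block moved no count of called members by over 1.5 times. Under it Hist2h2aa2 and Hist1h4i lost their calls for Dex in IL-23R KO (edgeR adjusted p = 0.0601 and 0.0744). No paired analysis was possible for GR and for IL-23R KO against WT because these groups share no numbers. Signs that turned belong to genes that were not called: H2afz for Dex in WT was 0.0103 among genes with a mean of at least 10 CPM, and over the libraries left out it ran from -0.0435 to 0.0352. In the GR table Slbp ran from -0.198 to 0.0473 and Pcna from -0.194 to 0.153. For genotype without Dex the ranges were -0.0165 to 0.153 (Npat), -0.0879 to 0.0414 (H2afz), -0.0637 to 0.0411 (H3f3b), -0.117 to 0.0952 (Mcm5) and -0.0285 to 0.112 (Pcna). Npat ran from -0.166 to 0.0901 for Dex in KO, -0.0376 to 0.219 for genotype with Dex and -0.0893 to 0.167 for the interaction.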

Other observations

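With Dex in both genotypes, 45.9% of all genes tested were called between IL-23R KO and WT cells, 22.2% higher and 23.7% lower in KO. Of 22 S phase genes tested, 19 were lower and 1 higher in KO by edgeR, led by the cyclin gene Ccna2 (log2 fold change -1.77 ± 0.12 SE) and the helicase genes Mcm6 (-1.31 ± 0.09) and Mcm5 (-1.91 ± 0.14). The exception was Ccne2, a cyclin E gene (0.73 ± 0.22). Of 22 chaperones 13 were lower and 3 higher. Of 16 mRNA processing factors 6 were lower and 1 higher, and only both directions together are near the 45.9% of all genes tested. Of 9 replication-independent histones 3 were lower and 4 higher. H1f0, the linker histone of cells that have left the cycle, was among those higher (0.67 ± 0.16). The interaction of Dex and genotype was called lower for 18, 12, 3 and 3 genes of these 4 lists and higher for 1, 1, 0 and 3, in the order S phase genes, chaperones, processing factors and replication-independent histones. Over all genes tested 17.2% were lower and 15% higher. The processing factors were near the share for lower, with 0 higher.

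Dex in WT cells gave 4 calls among the 69 genes tested from these lists, where 8.08% of all genes tested were called: Hat1 (-0.53 ± 0.12) and Pcna (-0.34 ± 0.09) fell, and Eri1 (0.51 ± 0.14) and H2afy (0.31 ± 0.08) rose. The call of Pcna was lost without WT Ctrl replicate 2 or WT Dex replicate 2 or 3 (edgeR adjusted p = 0.0539 to 0.0886). In CHD1 cKO cells of the CNS, 22 of 22 S phase genes had a log2 fold change above 0 (median 0.26), while none was called by edgeR and 3 had an unadjusted p under 0.05, near the 11.9% of all genes tested. The histone members there had a median of -0.00.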
